A study of Mus musculus with 6 samples.

Results

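The alpha-arrestins Arrdc1, Arrdc2, Arrdc3, Arrdc4 and Txnip were picked by gene symbol from a deposited table of raw read counts, which holds 47967 genes. All 5 were present, and all 5 passed the filter on low counts that left 15347 genes for testing. RNA was taken from gastrocnemius, a muscle of the calf, of C57BL/6 male mice that were 20 to 24 weeks old. In the high phosphate group (HP) the diet held 2.0% inorganic phosphate, or 2.3% in total, and was given for 12 weeks. In the normal phosphate group (NP) it held 0.6% inorganic phosphate, or 0.9% in total, over the same period. The other minerals did not differ (calcium 1.9%, potassium 1.8%, sodium 0.9% and magnesium 0.3% of both diets). Each diet had 3 libraries. Whether each library was made from a different mouse is not said in the labels, so the errors measure the spread between these libraries, which may be technical. The comparison asks which transcripts of this muscle differ after a phosphate-rich diet. The family was put together with the outcome of this same diet comparison already known, and Arrdc2 had been seen among the genes with the greatest increases. The diet differences of its members are therefore given as a description, with no test of their own.

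Alpha-arrestins are adaptor proteins with the arrestin fold of the better known beta-arrestins. Most carry short proline and tyrosine motifs that dock onto NEDD4-family ubiquitin ligases, and through these ligases they mark membrane proteins for removal from the cell surface. Txnip has a further property that the others lack, since it binds thioredoxin and blocks its reducing activity. Txnip and Arrdc4 both lower glucose uptake, and both are targets of MondoA and ChREBP, transcription factors that sense sugar phosphates in the cell. Arrdc3 is known in mice for limiting beta-adrenergic signalling and energy expenditure, and Arrdc1 is known in human cells for driving the budding of small vesicles from the plasma membrane. Arrdc2 is the least studied of them.

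The stretch just upstream of the start is shown for the gene with the largest difference between the diets (Arrdc2) and for the pair of known MondoA and ChREBP targets (Arrdc4 and Txnip). Each is the 250 bases before the RefSeq transcription start in GRCm38.p6, written 5′ to 3′ on the strand of the gene. Capitals mark matches to the motifs described after them, on either strand.
Arrdc2 (chr8:70839721-70839970, minus strand): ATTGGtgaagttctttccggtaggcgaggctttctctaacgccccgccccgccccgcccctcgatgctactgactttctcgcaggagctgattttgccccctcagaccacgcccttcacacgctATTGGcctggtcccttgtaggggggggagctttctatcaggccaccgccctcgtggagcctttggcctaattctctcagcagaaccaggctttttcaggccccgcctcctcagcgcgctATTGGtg
Arrdc4 (chr7:68749239-68749488, minus strand): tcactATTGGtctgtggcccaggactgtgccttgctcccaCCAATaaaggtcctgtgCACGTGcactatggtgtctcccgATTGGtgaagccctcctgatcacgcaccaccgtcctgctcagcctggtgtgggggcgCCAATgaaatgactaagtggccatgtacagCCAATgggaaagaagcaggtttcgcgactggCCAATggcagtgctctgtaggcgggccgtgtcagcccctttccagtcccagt
Txnip (chr3:96557707-96557956, plus strand): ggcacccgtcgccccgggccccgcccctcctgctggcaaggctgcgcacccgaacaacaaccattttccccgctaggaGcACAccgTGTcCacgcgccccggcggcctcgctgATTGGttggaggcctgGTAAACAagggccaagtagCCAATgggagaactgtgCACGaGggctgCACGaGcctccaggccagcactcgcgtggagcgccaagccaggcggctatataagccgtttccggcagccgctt

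Txnip had a match to a relaxed carbohydrate response element, the paired box bound by MondoA and ChREBP, beginning 85 bases before the start. The motif was searched as CACGNG, any 5 bases and CACGNG again, or as CNCGTG, any 5 bases and CNCGTG on the other strand. Of 32851 upstream windows of the same length in the RefSeq table, 15 (0.05%) held this motif. The same Txnip window held a FoxO motif (GTAAACA or TGTTTAC), found in 3.17% of all windows, and a loose glucocorticoid response element (GNACA, any 3 bases and TGTNC, the same on both strands), found in 0.39%. It also held 2 CCAAT boxes (CCAAT or ATTGG). Arrdc4 had 6 CCAAT boxes, as did 0.06% of windows with 6 or more, and a single E-box (CACGTG, 6.02% of windows) beginning 193 bases before the start. Arrdc2 had 3 CCAAT boxes, and 2.79% of windows had 3 or more. Arrdc3 had 1 and Arrdc1 had 0. Of the other motifs, Arrdc1, Arrdc2 and Arrdc3 held none, and Arrdc4 held none beyond its E-box. The start used for Arrdc1 was not found in a GENCODE transcript, and of 3 windows listed for Arrdc3 only 1 was searched here. No marked motif overlapped another, and TATAAA occurred in none of the 5 windows. For a TATA box only these exact letters, or TTTATA on the other strand, were searched. Related letters, such as tatataag near the end of the Txnip window, were not counted. A match describes letters only, and binding was not measured.

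The high phosphate libraries held 21856006 to 27474251 gene counts and the normal phosphate libraries 21968552 to 23722802. Levels are given in CPM after TMM scaling, which sets a typical gene equal between libraries, as mean ± SD with n = 3 in each diet. Log2 fold changes with their standard error (SE) are from edgeR's quasi-likelihood fit to all tested genes and run HP over NP. Scaling matters for this family: TMM factors were 0.795 to 0.882 in HP and 1.1 to 1.29 in NP, and without them the log2 fold change over all genes had a median of -0.49, against -0.02 with TMM. Marker genes differed as well, and 5 of 6 markers of skeletal muscle fibres were called higher, while all 8 of white adipocytes, all 7 of fibroblasts, 7 of 8 of macrophages (the other was called higher), all 6 of endothelium and all 5 of B cells were called lower and none of 5 of Schwann cells was called. Of all tested genes, 23% were called higher and 26.3% lower at the same threshold, an edgeR adjusted p under 0.05. Summed markers of skeletal muscle fibres stood at 140000 to 173000 CPM in HP and 47900 to 70200 CPM in NP, those of white adipocytes at 2760 to 4230 CPM in HP and 6500 to 7760 CPM in NP, and those of fibroblasts at 2260 to 2510 CPM in HP and 4510 to 10500 CPM in NP. Macrophage markers summed to 231 to 336 CPM in HP and 468 to 914 CPM in NP, endothelial markers to 397 to 554 CPM in HP and 699 to 841 CPM in NP, B cell markers to 0.962 to 1.83 CPM in HP and 9.0 to 56.2 CPM in NP, and Schwann cell markers to 137 to 223 CPM in HP and 129 to 169 CPM in NP. No marker on these lists was at 0 in all 6 libraries, and the part of these shifts in the results on the family was not tested. In bulk muscle, fewer cells of a type and less RNA per cell cannot be told apart.

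Arrdc2, at chr8:70835129-70839720 on the minus strand (ENSMUSG00000002910), had the largest difference of the family. Its levels were 157, 272 and 127 CPM in HP replicates 1, 2 and 3, and 13.4, 23.5 and 26.8 CPM in NP replicates 1, 2 and 3. The diets were far apart, with the lowest HP library well above the highest NP library. The mean was 185 ± 76.6 CPM in HP and 21.3 ± 6.99 CPM in NP, a log2 fold change of 3.12 ± 0.36 or 8.71-fold. This placed Arrdc2 at rank 18 from the top among the 15347 genes tested. Its raw counts, 3424, 5342 and 2447 in HP against 350, 664 and 733 in NP, were themselves separated before any scaling. In CPM, Arrdc2 also varied more between libraries of one diet than the rest of the family. The highest HP library was 2.14 times the lowest, and the highest NP library was 2.0 times the lowest. Its SD of log2 CPM was 0.57 in HP and 0.53 in NP, against medians of 0.15 in HP and 0.18 in NP over 13617 genes with a mean of at least 1 CPM. Without HP replicate 2, the highest library, the log2 fold change was 2.74. In the authors' FPKM it was Arrdc1 that varied more, with a highest library 2.52 times the lowest in HP and 2.59 times in NP. For Arrdc2 these were 2.12 and 2.09 times.

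**Figure D1:**
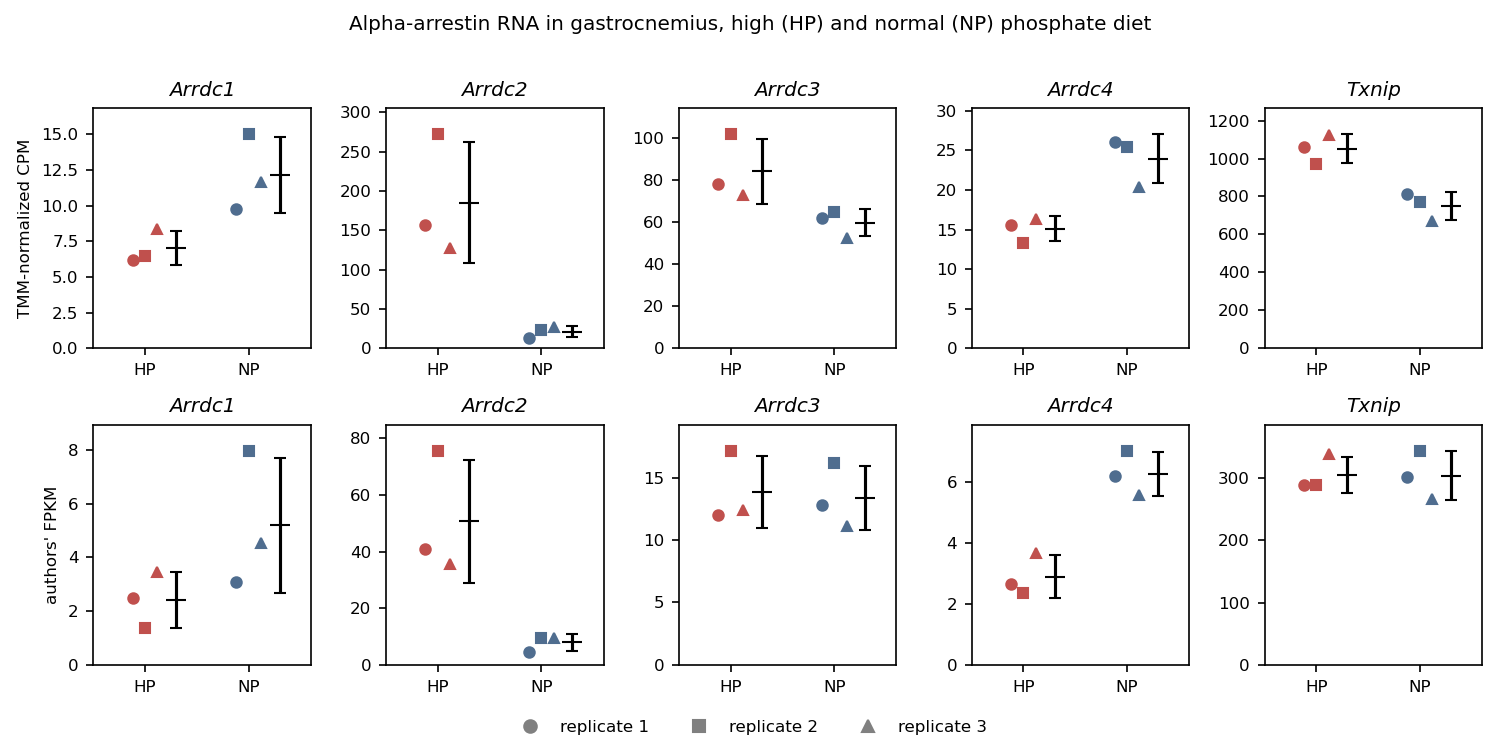
RNA levels of the 5 alpha-arrestins in TMM-normalized CPM (top row) and in the authors' FPKM (bottom row), with a point per library, HP left of NP, and the mean ± SD over n = 3 libraries beside each group. In CPM no gene's diets overlap, whereas in FPKM those of Arrdc1, Arrdc3 and Txnip do, and Arrdc2 is apart on both scales.

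Arrdc3, at chr13:80883384-80896042 on the plus strand (ENSMUSG00000074794), had 78.5, 102 and 72.8 CPM in HP, against 62.0, 65.0 and 52.6 CPM in NP. The HP libraries lay above the NP libraries on this scale, by a small margin, since the lowest HP value and the highest NP value were 72.8 and 65.0 CPM. The mean was 84.4 ± 15.4 CPM in HP and 59.9 ± 6.47 CPM in NP, a log2 fold change of 0.50 ± 0.15. The margin depended on the scaling. By library size alone Arrdc3 had 62.4, 88.7 and 64.2 CPM in HP and 68.2, 83.5 and 60.7 CPM in NP, which overlap, and the log2 fold change was 0.02. The authors' FPKM gave 13.8 ± 2.87 in HP and 13.4 ± 2.54 in NP. HP replicate 2 was the highest HP library for both Arrdc2 and Arrdc3, and without it the log2 fold change of Arrdc3 was 0.34.

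Txnip, at chr3:96557957-96561883 on the plus strand (ENSMUSG00000038393), was by far the most abundant member. It had 1062, 969 and 1122 CPM in HP, against 814, 771 and 669 CPM in NP. All HP libraries were above all NP libraries after TMM scaling, with a mean of 1051 ± 76.8 CPM in HP and 751 ± 74.7 CPM in NP and a log2 fold change of 0.48 ± 0.17. Its raw counts, however, overlapped, at 23185, 19026 and 21607 in HP and 21250, 21768 and 18270 in NP. By library size alone the log2 fold change was 0.0082, and the FPKM values were 305 ± 28.8 in HP and 304 ± 38.7 in NP. Txnip thus was higher relative to a typical gene, while its share of all counts was nearly equal in HP and NP.

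Txnip shares 606 exonic bases, 19.4% of its exonic length, with Gm15441, an antisense RNA on the opposite strand, and no strand setting of the counting is given. The counts of Gm15441 were 13, 11 and 6 in HP and 19, 18 and 21 in NP, small beside the counts of Txnip. In the authors' FPKM, by contrast, Gm15441 stood at 61.3 to 73.2 in HP and 65.0 to 78.5 in NP. The FPKM values of this pair are uncertain, and the source of the gap between the tables was not tested. None of the 50-base stretches in transcripts of Arrdc1 to Arrdc4 occurred in another gene, and none of their exonic bases overlapped another gene.

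Arrdc4, at chr7:68736995-68749241 on the minus strand (ENSMUSG00000042659), was lower on the high phosphate diet. It had 15.6, 13.4 and 16.4 CPM in HP, against 26.1, 25.4 and 20.4 CPM in NP, and the diets did not overlap. The mean was 15.1 ± 1.57 CPM in HP and 23.9 ± 3.09 CPM in NP, a log2 fold change of -0.66 ± 0.13. By library size alone the difference was wider, at -1.14, and the FPKM values were 2.90 ± 0.697 in HP and 6.28 ± 0.734 in NP. Arrdc4 therefore was lower under every scaling run.

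Arrdc1, at chr2:24925352-24935252 on the minus strand (ENSMUSG00000026972), was the other member that was lower. It had 6.19, 6.47 and 8.36 CPM in HP, against 9.73, 15.0 and 11.7 CPM in NP, with no overlap. The mean was 7.0 ± 1.18 CPM in HP and 12.1 ± 2.66 CPM in NP, a log2 fold change of -0.79 ± 0.19. NP replicate 2 was the highest library, and without it the value was -0.61. In FPKM the diets overlapped, since HP replicate 3 had 3.45 and NP replicate 1 had 3.08. The highest NP library in FPKM, at 7.97, was 2.59 times the lowest, against 1.54 times in CPM.

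Counted together, 3 members were higher and 2 lower in HP. The edgeR fit over all genes called all 5 at a Benjamini-Hochberg adjusted p under 0.05, where 49.3% of all tested genes were called (23% higher and 26.3% lower). Likewise the diets did not overlap in any of the 5, nor in 62.4% of all tested genes (30.3% higher and 32.1% lower). Since the members were put together with this comparison in view, nothing is read from these counts. The 5 log2 fold changes had a median of 0.48, and those of all tested genes one of -0.02. In the count fits the calls that changed were those of Arrdc3 and Txnip: 3 members remained called without HP replicate 2, without NP replicate 3 or with library size alone, and Arrdc3 and Txnip were the pair lost in each case. Txnip alone was lost without HP replicate 1 or 3, at log2 fold changes of 0.48 and 0.44. Keeping every gene with a count also lost Txnip, at 0.50. With limma on log2(FPKM + 1) only Arrdc2 and Arrdc4 were called.

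**Figure D2:**
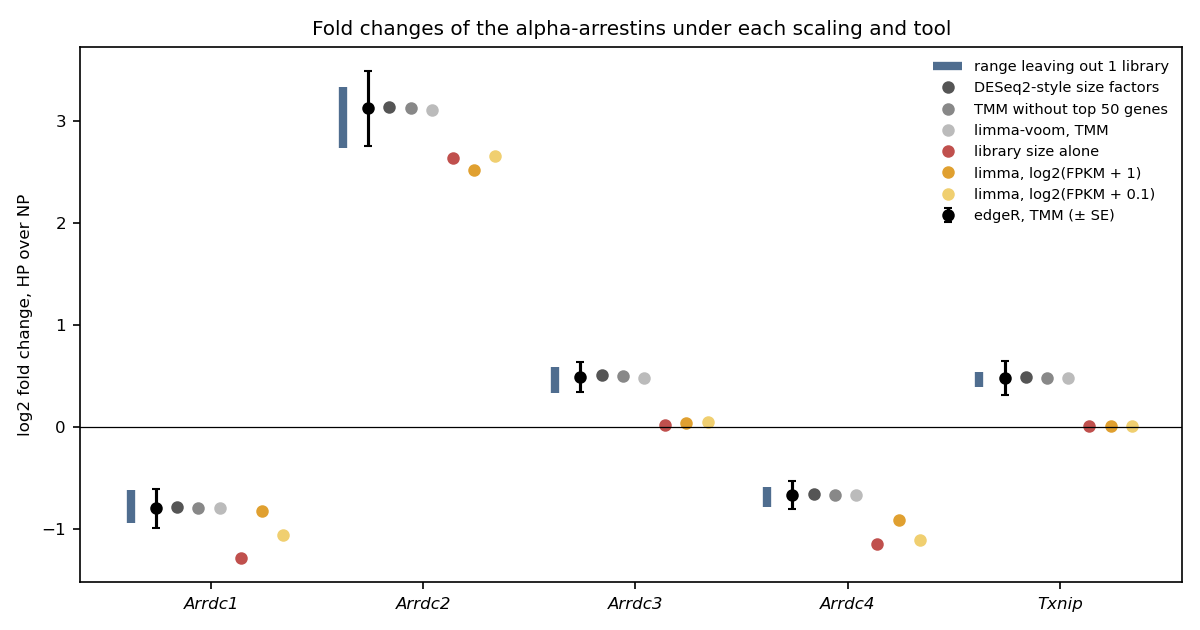
Log2 fold change, HP over NP, of each alpha-arrestin under the TMM fit of edgeR (black, ± SE) and under other scalings and tools, with bars for the range when any 1 library is left out. Arrdc2 stays at 2.52 or more and Arrdc4 at -0.58 or less in all of these, while Arrdc3 and Txnip sit near 0 with library size alone and in FPKM.

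Ratios between members of one library do not depend on the scaling between libraries, so they show how the make-up of the family differed. Per kilobase of exon, Arrdc2 stood to Txnip as 0.143, 0.271 and 0.109 in HP and as 0.0159, 0.0295 and 0.0388 in NP. The ratio averaged 0.174 ± 0.0855 in HP and 0.0281 ± 0.0115 in NP, 6.15-fold higher in HP by the mean of logs. Arrdc2 to Arrdc4 was 12.5, 25.5 and 9.71 in HP and 0.643, 1.16 and 1.64 in NP, 13.6-fold higher in HP by the same measure. Arrdc2 lay above Arrdc3 in each HP library, at a ratio of 3.38 or more, and below it in NP replicates 1 and 2, at 0.419 and 0.702. In NP replicate 3 they were nearly equal, at 0.989.

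Arrdc3 to Txnip did not separate the diets, at 0.0368, 0.0524 and 0.0324 in HP and 0.0379, 0.042 and 0.0392 in NP. Arrdc1 to Txnip was 0.00724, 0.00831 and 0.00927 in HP and 0.0149, 0.0242 and 0.0217 in NP, and the diets did not overlap. Arrdc4 to Txnip agreed closely between libraries of one diet, at 0.0114, 0.0106 and 0.0113 in HP and 0.0247, 0.0254 and 0.0236 in NP. The ratio varied by 3.54% in HP and 3.82% in NP (coefficient of variation), and it was 2.22-fold lower in HP.

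**Figure D3:**
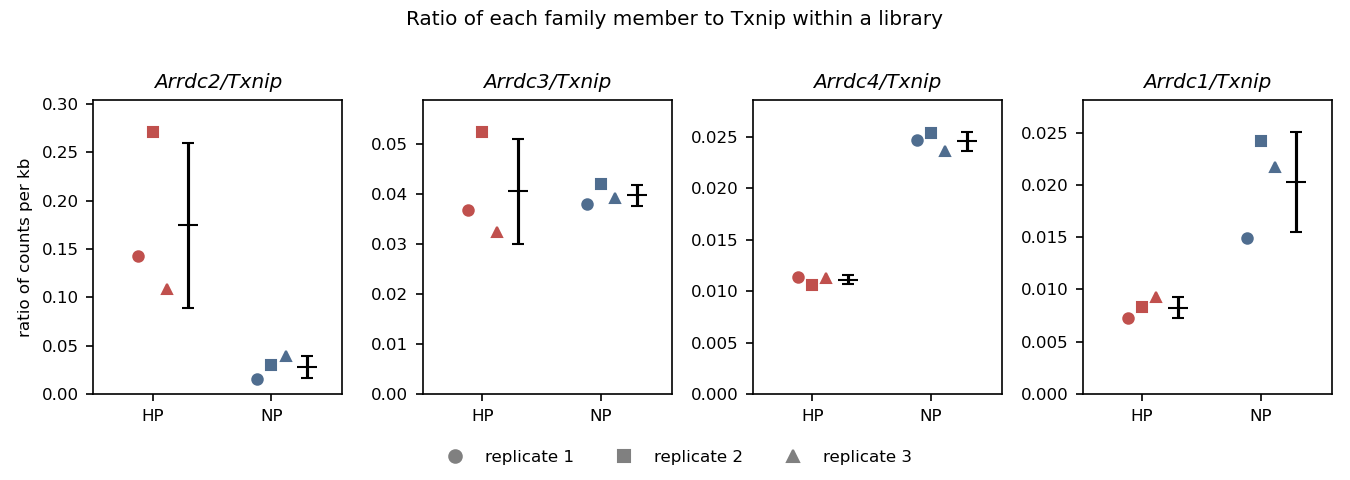
Ratio of Arrdc2, Arrdc3, Arrdc4 and Arrdc1 to Txnip within each library, in counts per kilobase of exon, with a point per library, HP left of NP, and mean ± SD over n = 3 libraries. Arrdc2/Txnip is higher in all HP libraries, Arrdc4/Txnip and Arrdc1/Txnip are lower in all of them, and Arrdc3/Txnip overlaps.

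Within a diet, Txnip and Arrdc4 moved together from library to library. Their deviations from the diet mean in log2 CPM had the same sign in 6 of 6 libraries, with a root mean square distance of 0.043. Of the 10 pairs in the family, the next closest was Arrdc3 and Txnip at 0.212, with the same sign in 3 of 6 libraries. Arrdc2 had the opposite sign to Txnip in 5 of 6 libraries and to Arrdc4 in 5 of 6. Of 13616 other genes with a mean of at least 1 CPM, 164 (1.2%) matched the sign of Txnip in all 6 libraries, and 20 (0.147%), Arrdc4 among them, had a ratio to Txnip that varied as little within diets. This was noticed after the values were seen. Genes of one library share its scaling, which bears on the matching signs but drops out of the ratio. In FPKM the ratio varied by 14.6% in HP and 1.18% in NP. The counting error of Arrdc4 alone was 3.74% to 6.18% per library, so the closeness cannot be resolved beyond counting error.

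Compared per length, the authors' FPKM put the members in the order Txnip, Arrdc2, Arrdc3, Arrdc4 and Arrdc1 in HP, and Txnip, Arrdc3, Arrdc2, Arrdc4 and Arrdc1 in NP. In HP, Arrdc2 (50.8 ± 21.7 FPKM) lay above Arrdc3 (13.8 ± 2.87 FPKM) in all 3 libraries, and Arrdc4 (2.90 ± 0.697 FPKM) lay above Arrdc1 (2.43 ± 1.04 FPKM) in each of them by less than the spread between libraries. In NP, Arrdc3 (13.4 ± 2.54 FPKM) lay above Arrdc2 (7.93 ± 2.89 FPKM) in each library, and Arrdc2, Arrdc4 (6.28 ± 0.734 FPKM) and Arrdc1 (5.20 ± 2.51 FPKM) did not differ beyond their spread. FPKM did not follow the counts by a fixed length, as Arrdc1 had 135 and 127 counts but 2.48 and 1.37 FPKM in HP replicates 1 and 2, so the ranking was repeated on TMM CPM per kilobase of exon. The order was the same, with means of 337, 57.4, 13.5, 3.74 and 2.79 in HP for Txnip, Arrdc2, Arrdc3, Arrdc4 and Arrdc1, and of 241, 9.56, 6.58, 5.93 and 4.83 in NP for Txnip, Arrdc3, Arrdc2, Arrdc4 and Arrdc1. Txnip made up 81.4 ± 5.76% of the summed FPKM of the family in HP and 90.3 ± 1.36% in NP. Arrdc2 made up 13.5 ± 5.49% in HP and 2.38 ± 0.924% in NP. Arrdc5, the remaining gene of this name, is known from testis and was not tested, with 3, 7 and 3 counts in HP and 5, 2 and 2 counts in NP.

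For each member the 3 genes nearest in pattern were found by the root mean square distance between profiles of log2 CPM over the 6 libraries, each centred on its own mean, among 12495 genes. Arrdc2 had no close neighbour, with 0 genes within 0.25. Among its nearest were the deubiquitinase Otub2 at 0.47 and Ush1c at 0.47. Otub2 averaged 48.6 ± 12.4 CPM in HP and 8.59 ± 1.64 CPM in NP. For Txnip they were the ubiquitin ligase Rnf8 at 0.031, the clock repressor Cry1 at 0.036 and Slc35c2 at 0.06, and 32.7% of the genes lay within 0.25. Nearest to Arrdc3 were Nceh1, Mast4 and Zfp839, at 0.073 to 0.081. Arrdc4 was matched by the checkpoint kinase Chek2, Wtip and the transcription factor E2f5, at 0.061 to 0.062, and Arrdc1 by Cep128, the receptor Notch3 and Hykk, at 0.041 to 0.066. A gene of small diet difference has many neighbours by this measure. Otub2 and Ush1c share a large log2 fold change (2.50 and 3.05) with Arrdc2, which by itself brings profiles centred over the 6 libraries nearer. The names therefore say little for any member.

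The genes that work with or upstream of alpha-arrestins were taken as 8 lists of 77 genes, of which 68 were tested. Of these 33 (48.5%) were called by edgeR, 22 higher and 11 lower, beside 49.3% of all genes, and their median log2 fold change was 0.19 beside -0.02 for all genes. The share called ran from 20% in the ligase list to 75% in the cargo list. The lists were drawn up with earlier results of these data known.

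**Figure D4:**
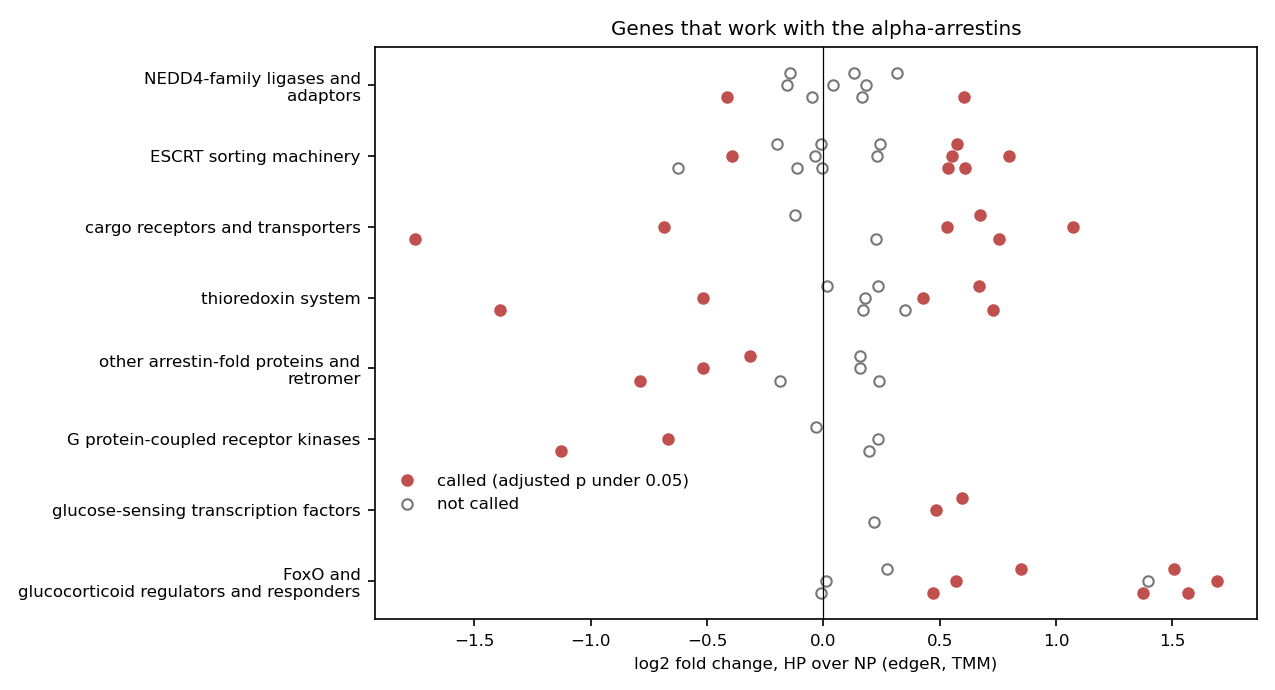
Log2 fold change, HP over NP, of the 68 tested genes in 8 lists of genes that act with or upstream of the alpha-arrestins, with a point per gene, filled where edgeR's adjusted p was under 0.05. Values of the ligase list lie between -0.42 and 0.60, while those of the FoxO and glucocorticoid list reach 1.69.

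The next list held the NEDD4-family ubiquitin ligases that alpha-arrestins recruit and the Ndfip adaptors of these ligases. Of 10 tested, 1 was called higher and 1 lower, the median was 0.09, and with library size alone 0 were higher and 6 lower. Without HP replicate 1, 2 or 3, 1 of the 10 was called. Nedd4, the founding ligase of the family, was not called, at 709 ± 51.3 CPM in HP and 633 ± 23.7 CPM in NP (0.16 ± 0.15, edgeR adjusted p = 0.388, or -0.32 with library size alone). Wwp1 had 498, 426 and 431 CPM in HP and 341, 221 and 329 CPM in NP (0.60 ± 0.19, edgeR adjusted p = 0.0253), and its call was lost without HP replicate 1, 2 or 3, at 0.53, 0.65 and 0.64, as well as in log2(FPKM + 1) (0.02) or scaled by library size (0.14). Smurf1 fell (-0.42 ± 0.10, edgeR adjusted p = 0.00721), to 27.3 ± 1.97 CPM in HP against 36.5 ± 1.01 CPM in NP.

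The sorting machinery that takes tagged proteins into vesicles, the ESCRT complexes, includes Tsg101, the partner of Arrdc1 in vesicle budding. Of 14 tested, 5 were called higher and 1 lower, and the median was 0.11, but with library size alone 0 were higher and 6 lower. Ubap1 (0.57 ± 0.09, edgeR adjusted p = 0.00124), Vps37c (0.54 ± 0.09) and the ATPase Vps4a (0.55 ± 0.10), which takes the complex apart, rose relative to a typical gene. The other calls, named after their values were seen, were Vps37a (0.80 ± 0.15) and Mvb12b (0.61 ± 0.12) as higher and Vps4b (-0.39 ± 0.10) as lower. With library size alone none of the 5 was called as higher, at 0.06 to 0.33.

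Transcripts of proteins whose surface level alpha-arrestins are known to control moved both ways, and the proteins themselves were not measured. Of 8 tested, 4 were called higher and 2 lower, and their median was 0.38. With library size alone 1 was higher and 3 lower, with a median of -0.10, and on the log2(FPKM + 1) scale 1 was higher and 2 lower, or 0 and 0 without a filter. Slc2a4, the insulin-responsive glucose transporter GLUT4 that Txnip removes from the surface, had 821, 891 and 712 CPM in HP and 422, 263 and 468 CPM in NP (1.07 ± 0.23, edgeR adjusted p = 0.00458), and the diets did not overlap. Slc2a1, the basal glucose transporter GLUT1 and a target of Txnip and Arrdc4, was not called, at 15.1 ± 4.47 CPM in HP and 12.9 ± 1.47 CPM in NP (0.23 ± 0.20, edgeR adjusted p = 0.371). Its log2 fold change was below 0 without HP replicate 2 (-0.018) and with library size alone (-0.25). The insulin receptor Insr (0.68 ± 0.12, edgeR adjusted p = 0.00182) and the iron transporter Slc11a2 (0.76 ± 0.12) rose relative to a typical gene and were not called with library size alone (0.20 and 0.28).

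Adrb3, the beta-adrenergic receptor of adipocytes, fell to 2.02 ± 0.579 CPM in HP against 6.78 ± 1.05 CPM in NP (-1.75 ± 0.24, edgeR adjusted p = 0.000897). The summed white adipocyte markers given above were lower in the same libraries, as were those of other cell types, and a link to Adrb3 was not tested. Notch1, a receptor named after its value was seen, fell (-0.68 ± 0.14).

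The thioredoxin system is the one that Txnip restrains. Of 10 tested, 3 were called higher and 2 lower, and their median was 0.21. With library size alone 0 were higher and 4 lower, and the median was -0.27. Txn1, the cytosolic thioredoxin bound by Txnip, had 58.3, 69.7 and 72.2 CPM in HP and 109, 91.4 and 86.6 CPM in NP, and fell (-0.52 ± 0.13, edgeR adjusted p = 0.00935). The thioredoxin reductases Txnrd1 of the cytosol (0.67 ± 0.13, edgeR adjusted p = 0.00298) and Txnrd2 of mitochondria (0.73 ± 0.11) rose relative to a typical gene, and with library size alone neither was called (0.20 and 0.26). Prdx4, the peroxiredoxin of the endoplasmic reticulum, fell to 9.08 ± 0.498 CPM in HP against 23.8 ± 4.56 CPM in NP (-1.39 ± 0.15). Prdx3 of mitochondria, named after its value was seen, was called as higher at 0.43 ± 0.15 (-0.039 with library size alone), and of the 6 fits with a library left out the call held only without NP replicate 1, with values of 0.38, 0.44 and 0.46 without HP replicates 1, 2 and 3 and 0.33 and 0.40 without NP replicates 2 and 3.

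A further list held the beta-arrestins, the arrestin-like Vps26 proteins and the retromer parts that Vps26 binds. Of 7 tested, 0 were called higher and 3 lower, and the median was -0.19. Without HP replicate 1 or 3 or NP replicate 2, 1 was called, without NP replicate 1, 1 was higher and 2 were lower, and with library size alone 0 were higher and 6 lower. The beta-arrestin Arrb2 fell to 11.8 ± 1.42 CPM in HP against 20.5 ± 4.18 CPM in NP (-0.79 ± 0.16, edgeR adjusted p = 0.00406). Summed markers of macrophages, white adipocytes, fibroblasts, endothelium and B cells were all lower in the same libraries, and a link to Arrb2 was not tested. Arrb1 was called at 47.4 ± 10.5 CPM in HP and 67.9 ± 9.15 CPM in NP (-0.52 ± 0.16, edgeR adjusted p = 0.0268), with overlapping diets, and the call was lost without HP replicates 1 (-0.41) or 3 (-0.45) or NP replicates 2 (-0.42) or 3 (-0.53). Dscr3, the retromer relative Vps26c, was called at -0.32 ± 0.11 and kept that call only without NP replicate 3 among the 6 left-out libraries, with the other values between -0.33 and -0.22. The Dscr3 call was also lost with DESeq2 (-0.30), limma-voom (-0.31), DESeq2-style size factors (-0.30) and no filter on low counts (-0.30). Of 5 receptor kinases, which prepare receptors for beta-arrestins, 0 were called higher and 2 lower, and with library size alone 0 were higher and 4 lower. Called with TMM were Grk5 (-1.13 ± 0.20) and Grk6 (-0.67 ± 0.12, edgeR adjusted p = 0.00247).

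The last lists hold factors known to act upstream of alpha-arrestin genes, and other targets of those factors. Of the 3 glucose-sensing factors, 2 were called higher and 0 lower, 1 was called without HP replicate 1 or 2, and 0 were called with library size alone, while on the log2(FPKM + 1) scale 0 were called higher and 1 lower. Mlxip, which encodes MondoA, had 128, 138 and 150 CPM in HP and 96.6, 85.3 and 93.4 CPM in NP (0.60 ± 0.11, edgeR adjusted p = 0.00284). Its direction depended on the measure, since it was not called with library size alone (0.13) and was called as lower by limma on FPKM (-0.56 on the log2 scale with a pseudocount of 1, adjusted p = 0.0352). Mlxipl, which encodes ChREBP, was called at 0.48 ± 0.14 (edgeR adjusted p = 0.019), and lost the call without HP replicates 1 (0.48) or 2 (0.46) and with library size alone (0.02).

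Of 11 FoxO and glucocorticoid genes, 7 were called higher and 0 lower, and the median was 0.85. With library size alone, and also without HP replicate 2, 4 were higher and 0 lower. Tsc22d3, the glucocorticoid-induced leucine zipper, had 534, 474 and 364 CPM in HP and 127, 135 and 162 CPM in NP (1.69 ± 0.18, edgeR adjusted p = 0.000397). The clock gene Per1 (1.51 ± 0.20) and Fkbp5, a glucocorticoid-induced chaperone (1.56 ± 0.28, edgeR adjusted p = 0.00317), rose as well. Fkbp5 had 78.3, 135 and 61.2 CPM in HP and 30.7, 27.2 and 34.8 CPM in NP. Klf15, a glucocorticoid-induced transcription factor of muscle, had 72.6, 140 and 61.7 CPM in HP and 38.6, 27.1 and 40.2 CPM in NP (1.38 ± 0.32, edgeR adjusted p = 0.0107), and its call was lost without NP replicate 2 (1.22), when every gene with a count was kept (1.39) and on the log2(FPKM + 1) scale (0.81). Foxo1 was called with overlapping diets, at 67.0, 74.9 and 33.7 CPM in HP and 25.7, 37.3 and 34.5 CPM in NP (0.85 ± 0.29, edgeR adjusted p = 0.0421). Of the 6 fits with a library left out, that call was kept without HP replicate 3 (1.13) and was lost without HP replicates 1 (0.74) or 2 (0.63) and without NP replicates 1, 2 and 3 (0.70, 0.96 and 0.88). It was also lost with no filter on low counts (0.87), in log2(FPKM + 1) (0.28) and scaled by library size (0.35).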

How the data were processed

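Muscle RNA was sequenced from 3 libraries per diet. The authors deposited raw counts for each Ensembl gene and, for 38011 genes, FPKM values. The submitters' processing notes name GRCm38 and, without saying what each did, featureCounts 1.4.6, HISAT2 2.0.1, DESeq2 1.6.3 and Trim Galore 0.4.1. How strand was handled and how FPKM was computed is not given in the sources used.

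Libraries were grouped and numbered from the sample titles. The count fit used edgeR 4.0.16 (R 4.3.3) with TMM, filterByExpr, the robust quasi-likelihood F test and Benjamini-Hochberg adjustment over 15347 genes, and called genes at an adjusted p under 0.05. SE was taken as the fold change divided by the root of F. The median SE was 0.16. Libraries of one diet differed by a chi-square of 18.4 to 60.9 per degree of freedom, and none was a copy of another. The members, lists and tests were chosen with earlier results of these data known. Named outside the family were the 3 called genes of smallest p in each list, 9 fixed genes and the 3 nearest patterns per member, leaving out predicted genes and pseudogenes, and 5 genes added after their values were seen, and some genes that these choices pick are not reported here. Profiles used log2 CPM with a prior count of 2. Lengths, gene positions and overlaps came from GENCODE M21 on GRCm38, and upstream sequences from RefSeq. Alternatives were other scalings and filters, the replicate block, each library left out, DESeq2 1.42.0, limma-voom (limma 3.58.1) and limma on log2 FPKM with pseudocounts of 1 and 0.1. The count fits were also run on simulated counts in which a small set of genes was changed equally in both directions. Such counts hold no broad shift like the one between these diets, so they do not test the choice of scaling.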

Additional observations from a re-analysis of the deposited data

How the results depend on the processing

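Across all genes 7563 were called, and 5521 to 8764 under the alternatives. Leaving out 1 library gave 6102 to 7295. Library size alone turned the split of 3528 higher and 4035 lower into 878 and 7886, and log2(FPKM + 1) into 718 and 5655. The members' log2 fold changes kept their sign in all alternatives. With library size alone they were -1.28 for Arrdc1, 0.018 for Arrdc3, -1.14 for Arrdc4 and 0.0082 for Txnip. On the log2(FPKM + 1) scale, with or without a filter, they were 2.52 for Arrdc2, 0.044 for Arrdc3, -0.91 for Arrdc4 and 0.0087 for Txnip, and with a pseudocount of 0.1 they were 0.047 for Arrdc3, -1.10 for Arrdc4 and 0.0087 for Txnip. Leaving out 1 library gave -0.94 to -0.61 for Arrdc1, 2.74 to 3.33 for Arrdc2, 0.34 to 0.59 for Arrdc3, -0.78 to -0.58 for Arrdc4 and 0.40 to 0.54 for Txnip. In the related lists 33 genes were called, 25 to 33 with 1 library left out, and 14 on the log2(FPKM + 1) scale without a filter, where more genes were tested.

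Of the other named genes, signs turned with library size alone for Slc2a1 (-0.25), Nedd4 (-0.32), Prdx3 (-0.039), Rnf8 (-0.0074), Cry1 (-0.051) and Slc35c2 (-0.074). Leaving out 1 library put Slc2a1 between -0.018 (without HP replicate 2) and 0.411. On the log2(FPKM + 1) scale, with or without a filter, and with a pseudocount of 0.1, they turned for Mlxip (-0.56 and -0.59), Slc2a1 (-0.26 and -0.33), Nedd4 (-0.175 and -0.176), Prdx3 (-0.014 and -0.014), Nceh1 (-0.15 and -0.20), Rnf8 (-0.049 and -0.055), Cry1 (-0.019 and -0.023) and Slc35c2 (-0.55 and -0.62). The cause was not tested beyond the change of scaling itself. The deviations of libraries with the same number were almost uncorrelated over genes (-0.015, 0.021 and 0.017). With 3 libraries per diet this check could miss a small effect shared by such libraries, and what the number stands for was not tested. With the replicate block 7328 genes and 31 of the related genes were called, the members stood at -0.78, 3.11, 0.49, -0.66 and 0.49 in the order Arrdc1 to Arrdc4 and Txnip, and Txnip, Dscr3 (-0.31) and Foxo1 (0.79) were not called.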
